A study of Homo sapiens with 13 samples.

Results

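The comparison of 1 µM romidepsin with DMSO covers 6 of the 13 RNA sequencing libraries made from HuT78 cells, and all 45744 genes in their count table. HuT78 is an established human T cell line derived from Sézary syndrome, the leukaemic form of cutaneous T cell lymphoma. Libraries were chosen by their titles: 4 of cells given romidepsin at 1 µM for 72 h (replicates 1 to 4) and 2 of cells given the vehicle DMSO for 72 h (replicates 1 and 4). The other 7 libraries, from cells given chaetocin at 10 nM (4) or F5446 at 10 nM (3) for 72 h, helped to estimate the spread between libraries and served once as further cells without a deacetylase inhibitor. All 13 libraries come from the same line, with no genetic change named in the labels, so every result describes a single cell line. Romidepsin libraries held 21948240, 19901052, 30494499 and 21556874 counts and DMSO libraries 21104305 and 20128474. Of the genes in the table, 17252 had enough counts to be tested.

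Histone deacetylases remove acetyl groups from lysines of histone tails, and their catalytic members sit in the Sin3, NuRD, CoREST and NCoR/SMRT corepressor complexes. Romidepsin is a prodrug that is reduced inside cells to a thiol, which binds the zinc of the class I deacetylases HDAC1, HDAC2 and HDAC3 at nanomolar concentrations, and it is used to treat cutaneous T cell lymphoma. Inhibitors of this class are known, over many cell lines, to raise histone acetylation within hours and to shift many transcripts in both directions. Commonly raised genes include CDKN1A (the cell cycle inhibitor p21), H1F0 (the linker histone H1.0), polyadenylated histone genes, CLU, GLRX, GSN, TXNIP, metallothioneins and silent neuronal genes such as TUBB3. Commonly lowered genes include TYMS, CTPS1, MYC, HDAC7, BCL2 and cyclins. The comparison asks which of these genes differed between the libraries labelled romidepsin and those labelled DMSO. None of the tested genes that this class commonly changes passed the test. Intervals lay within 2-fold for 16 of the 23 commonly raised genes tested, and that of CDKN1A reached 3.36-fold, so a rise of some is left possible. The treatment itself is known here only from the labels. Histone acetylation was not analysed here, and the drug acts on proteins and not on a transcript that could be checked. A value given as with romidepsin is therefore one of the libraries labelled so, and whether those labels hold was not tested.

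The promoters of 2 genes, CKB and CDKN1A, are shown first. CKB was the only gene that passed the test. Induction of CDKN1A by deacetylase inhibitors is known to run through GC boxes bound by SP1 and SP3. HIST1H1C, a linker histone gene from the list of commonly raised genes, is shown because its window lacks such a box. Each line holds the 250 bases before the annotated transcription start, from the RefSeq promoter table of build GRCh38.p14, read 5′ to 3′ on the strand of the gene. Capitals mark the GC box, searched as GGGCGG on both strands (CCGCCC on the other), and overlapping matches were counted.
CDKN1A (chr6:36678464-36678713, plus strand): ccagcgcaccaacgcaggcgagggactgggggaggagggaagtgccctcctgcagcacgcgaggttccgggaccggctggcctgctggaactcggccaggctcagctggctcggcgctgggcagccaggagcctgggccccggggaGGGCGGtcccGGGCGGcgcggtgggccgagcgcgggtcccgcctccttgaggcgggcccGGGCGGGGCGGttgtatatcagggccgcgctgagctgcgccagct
CKB (chr14:103522831-103523080, minus strand): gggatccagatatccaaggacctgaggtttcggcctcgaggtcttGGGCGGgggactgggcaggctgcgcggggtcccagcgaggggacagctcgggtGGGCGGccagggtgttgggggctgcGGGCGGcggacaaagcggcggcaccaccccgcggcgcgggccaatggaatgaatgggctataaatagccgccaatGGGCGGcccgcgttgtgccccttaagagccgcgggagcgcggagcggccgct
HIST1H1C (H1-2 in the table, chr6:26056471-26056720, minus strand): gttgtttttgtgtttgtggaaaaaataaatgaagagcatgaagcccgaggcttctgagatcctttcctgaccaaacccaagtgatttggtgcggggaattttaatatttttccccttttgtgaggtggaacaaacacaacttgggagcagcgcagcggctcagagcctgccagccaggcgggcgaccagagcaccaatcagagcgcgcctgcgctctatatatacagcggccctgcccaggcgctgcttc
The CDKN1A and CKB windows each held 4 GC boxes and the HIST1H1C window 0, while 42.3% of the 27305 promoters in the table held at least 1. Of the 25 genes on the list of commonly raised genes, 22 had a promoter in the table and 9 of these held a box.

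Libraries labelled romidepsin lay about as close to DMSO libraries as to each other within a set of replicate numbers. Distances are the SD, over 8680 genes at a mean of at least 10 CPM, of the difference in log2 CPM (counts relative to the effective library size, the unit used throughout) between 2 libraries. Replicate numbers 1 and 2 form a set and 3 and 4 the other set, a division that separates the libraries on their first principal component, and each set holds a single DMSO library. Within a set, the 4 pairs of romidepsin with DMSO were 0.26 to 0.33 apart (median 0.31) and the 2 pairs of romidepsin libraries 0.30 and 0.32 apart (median 0.31). The closest of all 15 pairs was romidepsin 1 with DMSO 1, at 0.26, with 0.207% of genes more than 2-fold apart. These libraries share a replicate number, as do romidepsin 4 and DMSO 4 (0.32 apart). Pairs of the same treatment cannot share a number. Without a shared number, romidepsin 2 with DMSO 1 and romidepsin 3 with DMSO 4 were 0.30 and 0.33 apart. The part of a shared number in these distances was not tested. Romidepsin 1 and romidepsin 2, which had the same treatment and lie in the same set, were 0.30 apart with 0.461% of genes over 2-fold. Pairs from different sets were farther apart whether the treatment was the same (0.34 to 0.43, median 0.37, 5 pairs) or different (0.35 to 0.44, median 0.40, 4 pairs). Between sets the median share of genes over 2-fold apart was 1.57% for the same treatment and 2.275% for different treatments. No test was run on these distances, since pairs share libraries.

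**Figure D1:**
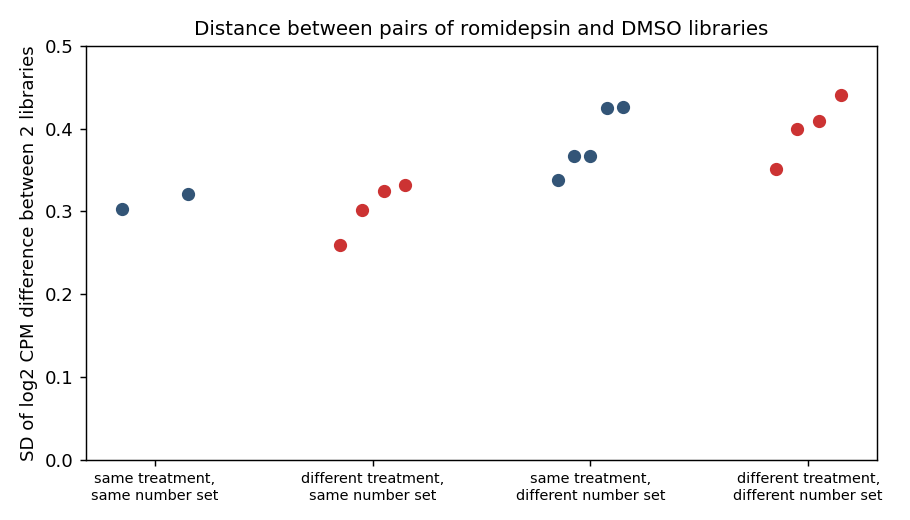
Distance between the romidepsin and DMSO libraries, 2 at a time. Each point is 1 of the 15 pairs, and the vertical axis gives the SD of the log2 CPM difference over 8680 genes. Within a set, the 2 pairs of the same treatment (0.30 and 0.32) lie inside the range of the 4 pairs of different treatment (0.26 to 0.33), and both kinds are higher between sets.

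Measures of whole libraries overlapped between the treatments. Genes at 1 CPM or more numbered 12938, 13263, 12906 and 12961 in romidepsin libraries 1 to 4 and 13019 and 13103 in DMSO libraries 1 and 4. The difference of means was -44 genes (exact permutation test over 15 splits, two-sided p = 0.8, adjusted p = 1 over 5 such measures; the smallest p that these numbers of libraries allow is 0.0667). Mitochondrially encoded genes took 5.745 to 12.73% of counts with romidepsin and 6.973 to 11.66% with DMSO.

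Of 17252 genes tested, 1 was called, a share of 0.0058%, and it was higher with romidepsin. At that share a list of genes would seldom hold a called gene, so 0 called in a list says little about its members. A gene was called where the adjusted p of edgeR's quasi-likelihood test, with a term for the 2 sets of replicate numbers and Benjamini-Hochberg adjustment over all genes, was under 0.05. Without that term 0 genes were called by edgeR, with 487 genes (2.82%) at an unadjusted p under 0.05. With the term, 833 genes (4.83%) had an unadjusted p under 0.05, of which 523 (3.03%) were higher and 310 (1.8%) lower with romidepsin. The median log2 fold change over all genes was 0.01, and 51.5% of genes lay above 0. Among the 8680 genes at a mean of at least 10 CPM, 7 differed by more than 2-fold and the SD of the log2 fold change was 0.19. The 95% interval lay within 2-fold either way for 8499 of these genes (97.9%), and for 9958 of all genes tested (57.7%). Romidepsin libraries lay all above both DMSO libraries for 922 genes (5.34%) and all below them for 859 (4.98%). DESeq2 on the same design called 11 genes and limma-voom 2. Whether replicates came from separate cultures is not in the labels, and every p here measures only the spread between these libraries.

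**Figure D2:**
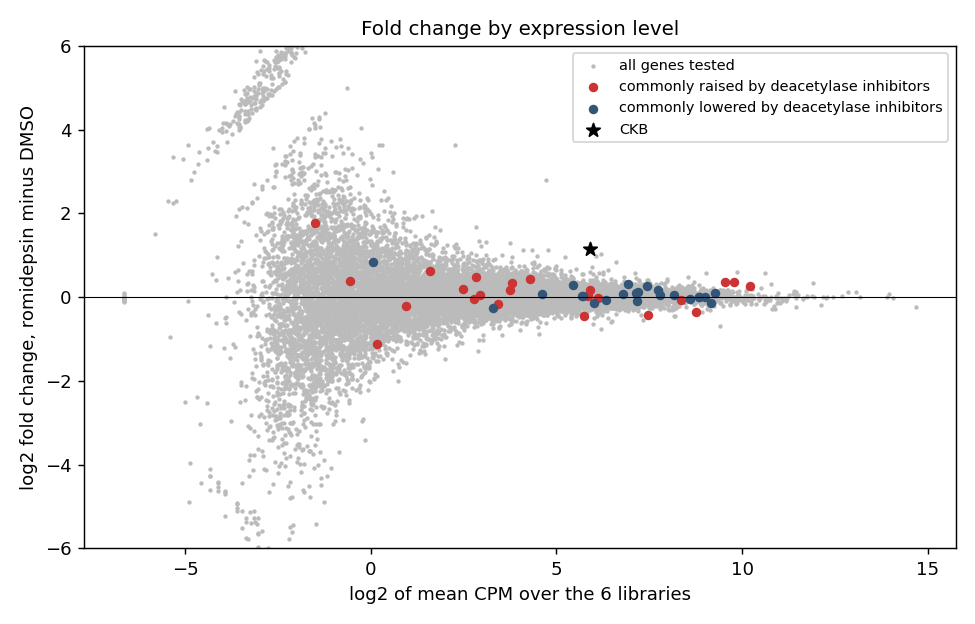
Log2 fold change of romidepsin minus DMSO (vertical) against the log2 of the mean CPM over the 6 libraries (horizontal), with 1 point for each gene tested. Red and blue points are the genes that deacetylase inhibitors commonly raise or lower, and the star is CKB. The cloud narrows around 0 as expression rises, and both sets of coloured points lie inside it; 125 genes of low expression fall outside the plotted range.

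CKB was the called gene. It encodes the brain-type creatine kinase, which passes phosphate between ATP and creatine. Its level was 63.3, 74.7, 76.1 and 81.1 CPM in romidepsin libraries 1 to 4 and 36.4 and 29.5 CPM in DMSO libraries 1 and 4. All 4 romidepsin libraries were above both DMSO libraries. The log2 fold change was 1.15 (edgeR adjusted p = 0.0182, 95% CI 0.79 to 1.51), or 1.73- to 2.85-fold at the bounds of the interval. Within replicate numbers 1 and 2 it was 0.92 and within 3 and 4 it was 1.41, each against a single DMSO library. CKB in cells given chaetocin lay between 47.4 and 72.5 CPM, above both DMSO libraries, and in cells given F5446 between 31.3 and 52.1 CPM. The call was lost without the term (edgeR adjusted p = 0.255), with a filter at a mean of 5 CPM (0.11), and without romidepsin 2, 3 or 4 (0.121, 0.145 and 0.157). Without DMSO 4 the log2 fold change was 0.90 (edgeR adjusted p = 0.643).

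CDKN1A did not pass the test, and its low counts leave a wide interval. It was at 4.16, 3.0, 4.15 and 2.04 CPM in romidepsin libraries 1 to 4 and at 1.49 and 3.19 CPM in DMSO libraries 1 and 4. DMSO 4 lay between romidepsin 2 and romidepsin 3, so the groups overlapped. The log2 fold change was 0.62 (edgeR adjusted p = 1, 95% CI -0.50 to 1.75), which spans 0.706- to 3.36-fold. It was 1.27 within replicate numbers 1 and 2 and -0.04 within 3 and 4. Of the other cell cycle inhibitors, CDKN2A and CDKN2B, which encode p16 and p15, had 0 counts in all 6 libraries. CDKN1B, which encodes p27, lay at -0.07 on the log2 scale (95% CI -0.55 to 0.41). Over the 13 tested genes of that list, 6 lay above 0 and 7 below, and the median was -0.03. None was called (0.0058% of all genes were called).

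The list of 25 commonly raised genes held 23 that could be tested, 14 above 0 and 9 below, with a median log2 fold change of 0.16 beside 0.01 over all genes. None of the 23 was called by edgeR (0.0058% of all genes were called). At an unadjusted p under 0.05, 2 were higher (3.03% of all genes were so). The groups did not overlap for 2, both higher (5.34% of all genes were so). The median was 0.04 within replicate numbers 1 and 2 and 0.20 within 3 and 4. For 18 of the 23 the upper bound of the interval was under 2-fold, as it was for 65.2% of all genes. Among all genes at a mean of at least 10 CPM, 97.9% had intervals within 2-fold. At a mean of at least 5 CPM, 18 members spanned -0.44 to 0.48. The 2 members that could not be tested were TUBB3, a neuronal tubulin, with 1 count in a DMSO library and 0 in the other 5 libraries, and CPA3, a mast cell protease, with 0 counts in all 6.

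Histone genes had the smallest p-values on that list. HIST1H1C, the linker histone gene of the third sequence above, was at 727, 753, 967 and 734 CPM in romidepsin libraries 1 to 4 and at 527 and 719 CPM in DMSO libraries 1 and 4. All 4 romidepsin values were above both DMSO values, though romidepsin 1 exceeded DMSO 4 by little. Its log2 fold change was 0.36 (edgeR unadjusted p = 0.00915, adjusted p = 0.985, 95% CI 0.10 to 0.63). HIST1H2BK, a polyadenylated H2B gene, was at 0.27 (edgeR unadjusted p = 0.0398, adjusted p = 1), with DMSO 4 at 1207 CPM above romidepsin 1 and 2 at 1085 and 1117. HIST1H2AC, HIST1H2BD and HIST1H2BC, from the same families, were at -0.08, -0.35 and -0.20, all with intervals that include 0. Over 18 histone genes that are replication-independent or polyadenylated, 8 lay above 0 and 10 below, with a median of -0.04. None was called (0.0058% of all genes were called). These genes have near-identical relatives, so how reads were divided among them is uncertain.

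H1F0, often used as a marker of deacetylase inhibition, was at 17.3, 24.6, 22.9 and 20.1 CPM with romidepsin and at 19.1 and 12.6 CPM with DMSO. Romidepsin 1 lay below DMSO 1 and the other 3 romidepsin libraries above both DMSO libraries. The log2 fold change was 0.43 (edgeR adjusted p = 1, 95% CI -0.01 to 0.87). CLU, which encodes the chaperone clusterin, was at 9.09, 8.80, 9.08 and 4.73 CPM against 6.08 and 5.27, with romidepsin 4 under both DMSO libraries (log2 fold change 0.48, 95% CI -0.16 to 1.12). GLRX, a glutaredoxin gene, was at 0.16 (95% CI -0.19 to 0.51). GSN, which encodes the actin-severing protein gelsolin, was at 0.20 (95% CI -0.55 to 0.94). The efflux pump gene ABCB1, whose product exports romidepsin and which deacetylase inhibitors can raise, was at 0.17 (95% CI -0.32 to 0.67).

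Several genes of the list lay below 0. TXNIP, the thioredoxin-binding protein gene, was at 155, 104, 178 and 181 CPM with romidepsin and at 141 and 296 CPM with DMSO. The 2 DMSO libraries lay on both sides of most romidepsin values, and the log2 fold change was -0.43 (95% CI -1.09 to 0.24). Metallothionein MT2A was at -0.44 (95% CI -0.91 to 0.02), with DMSO 4 at 85.9 CPM above the other 5 libraries, which spanned 41.7 to 57.3 CPM. Of the other 8 metallothionein genes, 6 had 0 counts in all 6 libraries. BMF and BCL2L11, which encode pro-apoptotic BH3-only proteins induced by deacetylase inhibitors in lymphoid cells, were at -0.04 (95% CI -0.80 to 0.72) and -0.07 (95% CI -0.42 to 0.27).

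**Figure D3:**
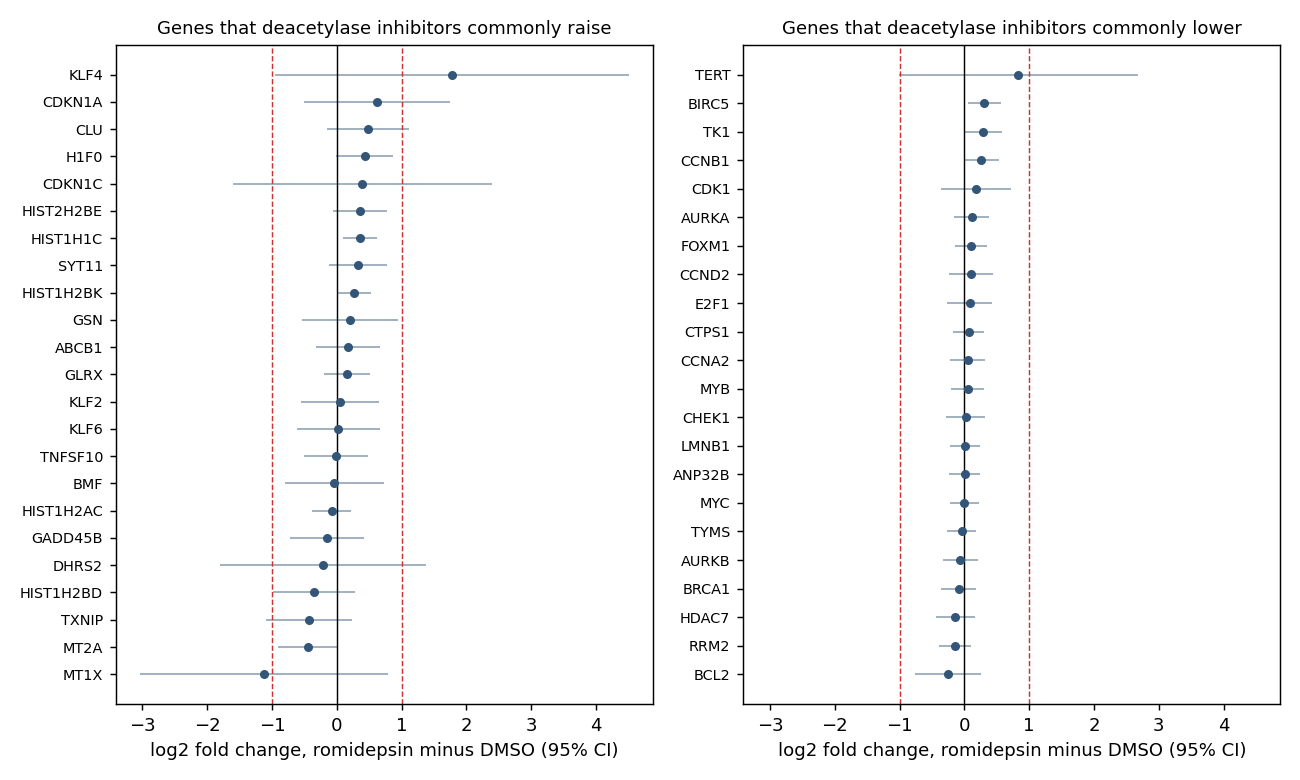
Log2 fold change of romidepsin minus DMSO with its 95% interval (edgeR) for the tested members of 2 lists: genes that deacetylase inhibitors commonly raise (left, 23) and lower (right, 22 of 23). Dashed lines mark 2-fold lower and higher. Most intervals include 0, and on the left 16 of the 23 lie within the dashed lines. Those that reach past a line include KLF4, CDKN1C, CDKN1A, MT1X and TERT, which have few counts, and TXNIP and CLU.

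Genes that deacetylase inhibitors commonly lower were close to their DMSO levels. Of 24 listed, 23 could be tested (CCND1, the cyclin D1 gene, had too few counts), 16 above 0 and 7 below, with a median of 0.05. None was called by edgeR (0.0058% of all genes were called). At an unadjusted p under 0.05, 1 was higher (3.03% of all genes were so). This was BIRC5, which encodes survivin (log2 fold change 0.31, edgeR adjusted p = 0.991, 95% CI 0.06 to 0.56). For 22 of the 23 the interval excluded a fall to under 0.5-fold, as it did for 66.3% of all genes. That share includes many genes with few counts, whereas 22 members of the list were at a mean of at least 5 CPM. Among all genes at a mean of at least 10 CPM, 97.9% had intervals within 2-fold. TYMS, the thymidylate synthase gene, was at 369, 362, 393 and 412 CPM in romidepsin libraries 1 to 4 and at 415 and 375 CPM in DMSO libraries 1 and 4. The groups overlapped, and the log2 fold change was -0.04 (edgeR adjusted p = 1, 95% CI -0.27 to 0.19). MYC, the growth-promoting transcription factor, was at 495, 505, 519 and 539 CPM against 482 and 549 CPM. All 4 romidepsin values lay between the 2 DMSO values, with a log2 fold change of -0.00 (95% CI -0.23 to 0.22). CTPS1, a CTP synthase, HDAC7, a class IIa deacetylase, and BCL2, an inhibitor of apoptosis, were at 0.06 (95% CI -0.18 to 0.30), -0.14 (95% CI -0.44 to 0.16) and -0.25 (95% CI -0.76 to 0.25).

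Cell cycle genes were near their DMSO levels. All 30 genes of the G1/S transition and DNA replication had intervals within 2-fold, as did 97.9% of all genes at a mean of at least 10 CPM. Of these 30 genes, 18 lay above 0 and 12 below, with a median of 0.01 and 0 called (0.0058% of all genes were called). MCM3, a subunit of the replicative helicase, was at 721, 634, 808 and 734 CPM with romidepsin and 684 and 772 CPM with DMSO (log2 fold change -0.01, 95% CI -0.23 to 0.22). PCNA, the sliding clamp of DNA polymerase, was at -0.04 (95% CI -0.32 to 0.24). Of 34 mitosis genes, 33 had intervals within 2-fold, the median was 0.05 and 0 were called. MKI67, which encodes the proliferation marker Ki-67, was at 2203, 2853, 2459 and 3610 CPM with romidepsin and 2204 and 3329 CPM with DMSO. In order of level, DMSO 1 came next to romidepsin 1 and DMSO 4 next to romidepsin 4. Numbers of cells and their survival were not analysed here. In bulk RNA, fewer cells of a kind and less RNA per cell cannot be told apart.

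Genes of the drug's targets and their partners were likewise near DMSO levels. HDAC1 was at 397, 403, 442 and 419 CPM with romidepsin and at 402 and 305 CPM with DMSO. DMSO 1 lay among the romidepsin values and DMSO 4 below them, and the log2 fold change was 0.23 (edgeR adjusted p = 1, 95% CI -0.01 to 0.48). HDAC2 was at -0.16 (95% CI -0.41 to 0.08) and HDAC3 at 0.02 (95% CI -0.27 to 0.30). Over all 18 deacetylases and sirtuins, 7 lay above 0 and 11 below, with a median of -0.12 and 0 called (0.0058% of all genes were called). Their log2 fold changes spanned -1.73 to 0.38, or -0.35 to 0.38 for the 16 at a mean of at least 5 CPM. Intervals lay within 2-fold for 16 of the 18. For 1 of them each romidepsin library was below both DMSO libraries, as for 4.98% of all genes. Of 23 corepressor genes, which include SIN3A, RCOR1, NCOR1 and the MTA family, 12 lay above 0 and 11 below, with a median of 0.02. Intervals lay within 2-fold for 22 of them, as for 97.9% of all genes at a mean of at least 10 CPM. The corepressor gene with the smallest p was CHD4, the NuRD remodeller, at -0.41 (edgeR adjusted p = 0.991, 95% CI -0.77 to -0.05), with DMSO 4 above the other 5 libraries, which spanned 17.9 to 23.6 CPM. Acetyltransferase and bromodomain genes had a median of -0.04 over 13, with EP300 at -0.17 (95% CI -0.48 to 0.13).

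No silent gene reached the minimum set for a gene switched on. Deacetylase inhibitors are known to switch on silent genes, so genes with 0 counts in every library of a treatment and at least 10 counts in every library of the other were counted. There were 0 such genes in either direction. At a minimum of 5 counts, 29 genes were found in romidepsin libraries alone and 41 in DMSO libraries alone. With 4 romidepsin and 2 DMSO libraries the 2 directions set unlike conditions, so these counts cannot be set against each other. Both DMSO libraries had 0 counts for 24679 genes, and for 21565 of these all 4 romidepsin libraries had 0 as well. Of 24 neuronal genes, 10 had 0 counts in all 6 libraries, among them NEFL and NEFM (neurofilaments), STMN2, CHGA and SCN2A. Another 8 could be tested, with 0 called (0.0058% of all genes were called), which says little about them. SNAP25, a synaptic membrane fusion gene, was at 10.3, 13.5, 11.5 and 6.22 CPM with romidepsin and at 12.8 and 3.0 CPM with DMSO (log2 fold change 0.58, 95% CI -0.08 to 1.23). Its DMSO libraries held the highest value but one and the lowest value of the 6. Of the 17 cancer-testis genes listed, 12 had 0 counts in all 6 libraries, including MAGEA1, MAGEA3 and MAGEA4. The highest level among the 17 was 1.00 CPM, for PRAME in romidepsin 2. SSX1 was at 0, 0, 0.42 and 0.46 CPM in romidepsin libraries 1 to 4 and at 0 and 0.05 CPM in DMSO libraries 1 and 4 (log2 fold change 2.63, 95% CI -3.91 to 9.17). The testis-type gene BRDT, at 18.2 to 30.2 CPM with romidepsin, was listed with bromodomain genes and is given below.

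Fold changes were also set beside the GC boxes. Of the 8680 genes at a mean of at least 10 CPM, 7127 could be matched by symbol to a promoter, 4878 with at least 1 GC box in the 250 bases and 2249 without. The median log2 fold change was 0.00 with a box (SD 0.17) and 0.02 without (SD 0.19). CKB and CDKN1A, each with 4 boxes in the sequences above, were at 1.15 and 0.62, and HIST1H1C, with 0, was at 0.36. The interval of CDKN1A, -0.50 to 1.75, includes 0 and the values of both other genes. CKB was picked as the called gene, CDKN1A for its known induction and HIST1H1C for its lack of a box. A relation of fold change to GC boxes therefore cannot be read from their order.

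Beyond CKB, the genes with the smallest p-values at a mean of at least 5 CPM were ALDOC, MCTP1, PALLD, CAPN6, TESC, CD247, ADGRL1, HLA-DRB1 and TP63, with edgeR adjusted p from 0.0825 to 0.261, so none of these 9 was called. CAPN6, which encodes a calpain without protease activity, was at 70.5, 81.5, 77.5 and 94.4 CPM in romidepsin libraries 1 to 4 and at 42.3 and 38.6 CPM in DMSO libraries 1 and 4. The lowest romidepsin value was 70.5 CPM and the highest DMSO value 42.3 CPM. Its log2 fold change was 0.99 (edgeR adjusted p = 0.117, 95% CI 0.60 to 1.38). PALLD, whose product palladin binds actin, was at 610, 587, 542 and 603 CPM against 440 and 348 CPM (log2 fold change 0.58, edgeR adjusted p = 0.0995, 95% CI 0.35 to 0.81). TESC, which encodes the calcium-binding protein tescalcin, was at 15.4, 13.1, 20.6 and 17.8 CPM against 8.14 and 5.46 CPM (log2 fold change 1.29, edgeR adjusted p = 0.117, 95% CI 0.77 to 1.82). For PALLD and TESC, too, each romidepsin library was above each DMSO library. MCTP1, a calcium-binding membrane protein gene, was at 10.3, 11.8, 8.43 and 6.03 CPM against 4.74 and 1.45 CPM (log2 fold change 1.69, edgeR adjusted p = 0.0995, 95% CI 1.04 to 2.33). ADGRL1, an adhesion receptor gene, was at 0.98 (edgeR adjusted p = 0.133, 95% CI 0.56 to 1.40).

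Both genes of this group that lay below 0 are known from T cell signalling or glycolysis. CD247, the zeta chain of the T cell receptor complex, was at 76.5, 59.4, 78.7 and 88.2 CPM with romidepsin and at 110 and 117 CPM with DMSO. All 4 romidepsin values were under both DMSO values, with a log2 fold change of -0.59 (edgeR adjusted p = 0.133, 95% CI -0.86 to -0.33). ALDOC, the glycolytic enzyme aldolase C, was at 29.1, 40.2, 95.1 and 76.7 CPM with romidepsin and at 60.7 and 141 CPM with DMSO. ALDOC separated the libraries by replicate number and not by treatment: libraries numbered 1 or 2 lay between 29.1 and 60.7 CPM and those numbered 3 or 4 between 76.7 and 141 CPM. Within each set the DMSO library was the highest, and the log2 fold change was -0.77 (edgeR adjusted p = 0.0825, 95% CI -1.07 to -0.46). Without chaetocin replicate 3, which stands apart from the other 12 libraries on the first principal component, edgeR called 8 genes in place of 1, among them ALDOC, MCTP1, PALLD, CAPN6, TESC, CD247 and CKB. DESeq2 called those 7 genes, with ADGRL1, HLA-DRB1 and 2 others.

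**Figure D4:**
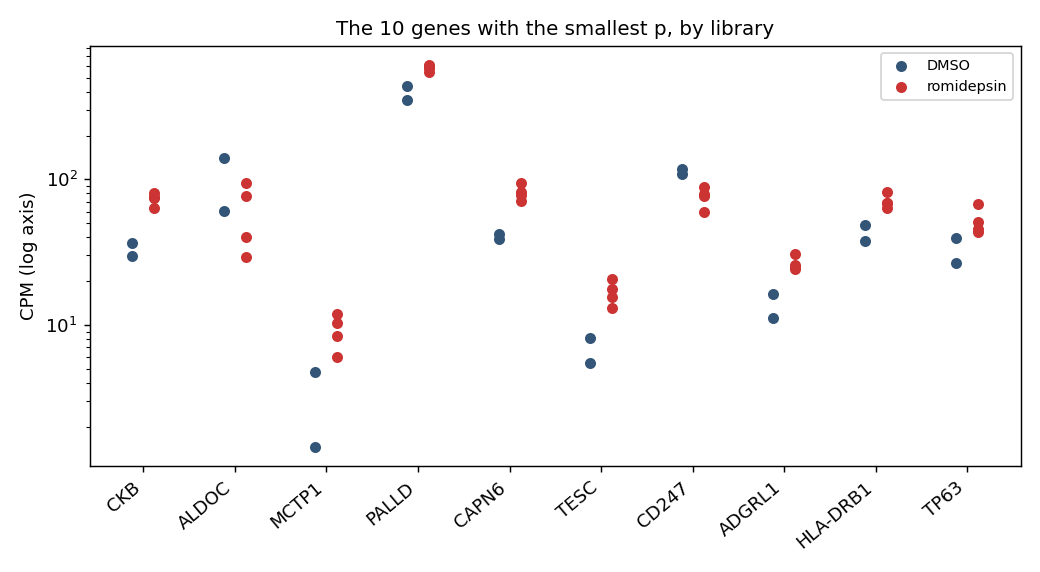
Level in CPM (log axis) of the 10 genes with the smallest p-values at a mean of at least 5 CPM, with 1 point for each of 2 DMSO (blue) and 4 romidepsin (red) libraries. The treatments do not overlap for 9 of the 10 genes and overlap for ALDOC, which is lower in each set of replicate numbers. These genes were ordered by p, so the separation in the plot follows from their choice.

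Antigen presentation genes lay mostly above 0, with none called. Of 26 genes, 22 lay above 0 with a median of 0.20. At an unadjusted p under 0.05, 8 were higher and 0 lower, where 3.03% of all genes were higher. None was called by edgeR (0.0058% of all genes were called). The summed level was 9265 to 10650 CPM with romidepsin and 8124 to 8738 CPM with DMSO. HLA-DRB1, a class II beta chain gene, was at 69.0, 63.8, 82.1 and 69.2 CPM against 48.2 and 37.8 CPM (log2 fold change 0.73, edgeR adjusted p = 0.166, 95% CI 0.41 to 1.04). The class II genes HLA-DRA, HLA-DPA1 and HLA-DQA1 were at 0.47, 0.43 and 0.52, and CD74, the class II invariant chain, at 0.33. Class I genes were closer to 0, with HLA-B at 0.17 and B2M at 0.21, both with intervals that include 0. The list's median was 0.13 within replicate numbers 1 and 2 and 0.32 within 3 and 4, and DMSO 4 had the lowest HLA-DRA, HLA-DPA1 and HLA-DPB1 values of the 6 libraries. HLA genes resemble each other closely, so the division of reads among them is uncertain.

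The T cell label was checked against marker genes. The summed level of 18 T cell receptor and signalling genes was 1876 to 2450 CPM with romidepsin and 1888 to 2234 CPM with DMSO. Monocyte markers summed to 1.91 to 4.55 CPM with romidepsin and 1.69 to 1.82 CPM with DMSO, low levels that did not overlap. Among them CSF1R had the smallest p, at 0.81, 0.45, 0.68 and 2.04 CPM with romidepsin and 0.19 and 0 CPM with DMSO. Its log2 fold change was 3.43 (edgeR unadjusted p = 0.018, adjusted p = 0.991, 95% CI 0.75 to 6.10). The erythroid markers summed to at most 0.242 CPM in any of the 6 libraries. Fibroblast markers summed to 32.5 to 54.4 CPM with romidepsin and 31.2 to 44.4 CPM with DMSO, with DCN and FAP at 0 counts in all 6 libraries. Keratinocyte markers summed to 81.8 to 112.8 CPM against 70.1 to 70.9 CPM, mostly TP63 and KRT10, with DSG3 and DSC3 at 0 in all 6. TP63, a p53-family transcription factor gene, was at 43.6, 45.2, 51.3 and 68.2 CPM with romidepsin and 26.5 and 39.4 CPM with DMSO (log2 fold change 0.67, edgeR adjusted p = 0.261, 95% CI 0.36 to 0.97). Natural killer cell markers came to 50.1 to 54.0 CPM with romidepsin and 53.0 to 61.0 CPM with DMSO, with NCAM1 and KLRF1 at 0 in all 6. B cell markers came to 69.8 to 98.9 CPM against 62.5 to 74.0 CPM, with CD79A, BLK and MS4A1 detected in every library and PAX5 at 1 count in romidepsin 1 and 0 elsewhere.

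Within the T cell genes, 11 of 16 tested lay above 0, the median was 0.06 and 0 were called (0.0058% of all genes were called). CD3G and CD3E, other chains of the receptor complex that holds CD247, were at 0.35 (95% CI 0.10 to 0.59) and 0.29 (95% CI 0.06 to 0.51), with edgeR adjusted p of 0.985 for both. LCK and ZAP70, the kinases next to the receptor, were at -0.08 and 0.04. Among Sézary cell genes, the median was 0.19 and 0 of 16 were called. GATA3, a T helper transcription factor, was at 520, 606, 953 and 890 CPM with romidepsin and 584 and 702 CPM with DMSO, and TOX, a regulator of T cell development, at -0.09. GATA3 was higher in replicate numbers 3 and 4 than in 1 and 2 in both treatments, with a log2 fold change of 0.16 (95% CI -0.31 to 0.62). IL10, an immunosuppressive cytokine gene, was at 44.4, 45.6, 29.7 and 38.6 CPM against 35.4 and 17.1 CPM (log2 fold change 0.65, edgeR adjusted p = 0.577, 95% CI 0.32 to 0.99). LTB, which encodes lymphotoxin beta, was at -0.70 (edgeR adjusted p = 0.893, 95% CI -1.17 to -0.24), with each romidepsin library under each DMSO library.

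Death pathway and stress genes gave similar values. Of 26 apoptosis genes tested, 10 lay above 0 and 16 below, with a median of -0.05. FASLG, the FAS death ligand, was at 12.98, 12.75, 13.78 and 16.2 CPM with romidepsin and 8.53 and 5.56 CPM with DMSO. All 4 romidepsin values were higher, but it was not called (log2 fold change 0.99, edgeR adjusted p = 0.826, 95% CI 0.40 to 1.59). TNFSF10, the TRAIL ligand that deacetylase inhibitors can raise, was at 103, 65.7, 42.9 and 58.5 CPM against 109 and 37.2 CPM (log2 fold change -0.02, 95% CI -0.51 to 0.48). The DMSO libraries held both the highest and the lowest TNFSF10 value. Heat shock and chaperone genes had a median of 0.07 over 13 and NF-kB targets 0.03 over 12. Thioredoxin and NRF2 genes had a median of -0.01 over 13 and JAK-STAT genes 0.03 over 16. Each of these lists had 0 called (0.0058% of all genes were called). Among 26 interferon-stimulated genes, the median was -0.04, with 12 above 0 and 13 below.

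The difference between the sets of replicate numbers was tested in its own fit. By edgeR 0 of 17252 genes had a romidepsin effect that differed between replicate numbers 1 and 2 and replicate numbers 3 and 4, with 884 (5.12%) at an unadjusted p under 0.05. Limma-voom also called 0. Each set has a single DMSO library, so this test has little precision.

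Romidepsin was also compared with the mean of the 3 other groups (DMSO, chaetocin and F5446, weighted equally), none of which held a deacetylase inhibitor per the labels. This comparison shares its romidepsin and DMSO libraries with the one above, and a gene moved by chaetocin or F5446 can be called in it. By edgeR 32 genes were called (0.185%), 29 higher (0.168%) and 3 lower (0.0174%) with romidepsin, at log2 differences of 0.46 to 1.26 in size with a median of 0.81, and 8 beyond 2-fold. For 10 of the 32 the romidepsin libraries did not overlap the other 9, as was so for 58 genes (0.336%) in all. None of the commonly raised or commonly lowered genes was among the 32. With 0.185% of all genes called, lists of that size would seldom hold a called gene, so this says little about their members. Without the term for the sets 1 gene was called, and without chaetocin 3 the count was 53. Leaving out romidepsin 1 gave 15, romidepsin 3 gave 18, and romidepsin 4 or DMSO 4 gave 20. Genes named from this comparison that are not in the paragraphs above were chosen after their values were seen.

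CAPN6, PALLD, ADGRL1, CKB and MCTP1 rose in this comparison, by log2 differences of 1.06, 0.47, 0.88, 0.80 and 1.25 (edgeR adjusted p from 0.000382 to 0.00232). CAPN6 ranged from 21.5 to 46.6 CPM in the other 9 libraries, all under the 70.5 CPM of romidepsin 1. PRKCB, the protein kinase C beta gene, rose: it lay between 29.1 and 65.2 CPM in the other 9 libraries and at 80.9, 81.4, 95.9 and 86.9 CPM with romidepsin (log2 difference 0.71, edgeR adjusted p = 0.000646, 95% CI 0.50 to 0.93). GPRIN3, a G protein regulator gene, ranged from 9.13 to 18.1 CPM in the other 9 libraries and from 24.7 to 28.6 CPM with romidepsin. Against DMSO alone PRKCB was at 0.60 and GPRIN3 at 0.76, with edgeR adjusted p of 0.556 and 0.714. FASLG (log2 difference 0.92, edgeR adjusted p = 0.0404) and ANKRD55 (0.69, edgeR adjusted p = 0.0125) also did not overlap the other libraries. Neither did PCGF2, a Polycomb group gene, at 12.4, 12.5, 10.6 and 12.1 CPM with romidepsin and at most 8.62 CPM in the other 9 (log2 difference 1.05, edgeR adjusted p = 0.0216), nor the forkhead transcription factor gene FOXP2, at 9.71, 14.8, 10.5 and 9.05 CPM and at most 7.88 CPM (log2 difference 0.97, edgeR adjusted p = 0.0324). CKB and MCTP1 overlapped the chaetocin libraries, which reached 72.5 and 6.07 CPM where the lowest romidepsin values were 63.3 and 6.03 CPM. TNFRSF4, the co-stimulatory receptor OX40, fell: it was at 3.27, 2.30, 6.06 and 5.01 CPM with romidepsin and at 6.95 to 14.7 CPM in the other 9 libraries (log2 difference -1.26, edgeR adjusted p = 0.00232, 95% CI -1.68 to -0.85). The lowest of those 9 values, 6.95 CPM, was that of DMSO 1, and the mean was 7.89 CPM with DMSO and 12.5 CPM with chaetocin. Against DMSO alone TNFRSF4 was at -0.94, PCGF2 at 0.91, FOXP2 at 0.71 and ANKRD55 at 0.73. Their edgeR adjusted p were 0.826, 0.985, 0.993 and 0.714, so none was called there.

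In the called genes MS4A1, BRDT and ACTA2 the romidepsin libraries overlapped the rest. MS4A1, which encodes CD20 and is one of the B cell markers above, was at 23.7, 33.3, 23.0 and 14.9 CPM against 17.2 and 10.1 CPM with DMSO and 7.73 to 11.6 CPM with chaetocin (log2 difference 0.96, edgeR adjusted p = 0.000992). PAX5, another of those markers, was at 0 in 5 of the 6 romidepsin and DMSO libraries, as above, and the part of other cells in the MS4A1 result was not tested. BRDT, a testis-type bromodomain gene, was at 30.2, 26.9, 18.2 and 22.1 CPM against 21.9 and 6.91 CPM with DMSO (log2 difference 1.10, edgeR adjusted p = 0.0127). ACTA2, the smooth muscle actin gene, fell (log2 difference -0.48, edgeR adjusted p = 0.0232), with 368 to 527 CPM with romidepsin, 502 and 639 CPM with DMSO and 693 to 869 CPM with chaetocin. With DMSO alone as the reference, MS4A1 was at 0.81, BRDT at 0.85 and ACTA2 at -0.36, with edgeR adjusted p of 0.700, 0.985 and 0.985.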

How the data were processed

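Gene expression was measured by RNA sequencing in 13 libraries of HuT78 cells. Per the labels, RNA came from a column kit with DNase treatment and libraries from a kit made for degraded human RNA. The submitters' processing notes name bcl2fastq 2.20.0.422 for base calls, cutadapt 1.8.1 for trimming, HTSeq 0.6.1 for counting and the build hg19. Not given in the sources used here are the alignment software, strandedness and gene annotation, so overlapping and antisense genes cannot be told apart. The values the authors deposited are raw counts per gene, which sum to a different total in each library (19901052 to 30816188); no library was a duplicate of another.

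Counts of all 13 libraries were fitted together in edgeR 4.0.16 (R 4.3.3) with TMM normalization, filterByExpr and the robust quasi-likelihood test, on the group and a term that contrasts replicate numbers 1 and 2 with 3 and 4. The labels do not call these sets batches. Tests were two-sided and adjusted by Benjamini-Hochberg over the 17252 genes tested. Intervals are Wald intervals from the same fit, and distances between libraries used log2 CPM with a prior count of 2. The effect in each set came from a fit with a mean for each group and set. Alternatives, listed in the closing section, used DESeq2 1.42.0 and limma 3.58.1. Only the main edgeR fit was tested on simulated data, which held no effect of the replicate sets. The numbers 1 and 4, shared by both treatments, gave correlations of 0.468 and 0.306 between deviations from the group means, too few pairs to treat the numbers as pairing.

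The comparison and 31 gene lists were chosen with earlier results of these data known, so their direction is not independent evidence. Genes were named by rule: a set of known response genes, every called gene, the 10 smallest p-values at a mean of at least 5 CPM, and the member of each list with the smallest p; further list members illustrate the counts. Promoter sequences came from the RefSeq table of GRCh38.p14, a different build from that of the counts, matched by symbol. Plots were made in Python 3.11.15 with matplotlib 3.10.9. The titles of F5446 libraries were used where their treatment tags differ. Some genes that the naming rule or the lists hold are not reported here.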

Additional observations from a re-analysis of the deposited data

Results flagged for a closer look

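In 5 cases the highest or lowest of the 4 romidepsin libraries stood apart from the other 3, its gap to the next value being most of the range of the 4; such gaps also arise by chance, and 57 genes were checked. CLU was at 4.73 CPM in romidepsin 4, where the next value was 8.8 CPM, and this library lay under both DMSO libraries. HIST1H1C was at 967 CPM in romidepsin 3, where the next value was 753 CPM. CTPS1 was at 121 CPM in romidepsin 2 (next 110 CPM), and NKG7, a cytotoxic granule gene, at 52.1 CPM in romidepsin 1 (next 47.4 CPM). The number of genes at 1 CPM or more was 13263 in romidepsin 2, above the other 3 romidepsin libraries and both DMSO libraries.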

How the results depend on the processing

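With 2 DMSO libraries, 1 in each set of replicate numbers, the comparison has little precision for genes with few counts, and the count of called genes moved with most choices; the cause was not tested except where fewer genes or libraries entered. Against DMSO, the count of 1 became 0 without the term for the sets, 4 with the 6 libraries alone and the term, 0 with them and no term, 11 with DESeq2, 2 with limma-voom, 20 without a filter on low counts and 0 at a mean of at least 5 CPM. Leaving out libraries gave 0 to 8: without romidepsin 2 the called gene was ALDOC, without DMSO 4 the 2 called genes did not include CKB, and a fit with a single DMSO library assumes that it varies like the other groups. Against the 3 other groups, the count of 32 became 1 without the term (an alternative chosen after the data were seen) and 20 at a mean of at least 5 CPM, and 15 to 53 with a library left out. At a mean of at least 5 CPM the median distance within a set was 0.355 between treatments and 0.348 within a treatment. Genes at 0 in a treatment and at 5 counts in the other numbered 29 (romidepsin alone) and 41 (DMSO alone), under conditions that differ with the number of libraries. The test of the difference between sets could not be fitted without either DMSO library.

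The 2 list medians kept their sign under every alternative, from 0.05 to 0.24 for commonly raised genes and from 0.00 to 0.07 for commonly lowered genes with a library left out. Of 56 named genes, 42 kept a single direction under 18 alternatives, and 32 of 1001 values reversed. With the replicate number as a replicate block, 1 gene was called against DMSO and 41 against the 3 groups, and BMF was at 0.13, GATA3 at -0.021, TNFSF10 at 0.14, GSN at -0.19 and HDAC3 at -0.045. TNFSF10 was at 0.0076 with the 6 libraries alone and the term, and MYC at 5e-04 with upper quartile scaling. With a library left out, log2 fold changes ranged from -0.039 to 0.21 for CCND2, -0.21 to 0.33 for KLF2, -0.094 to 0.089 for MYC, -0.053 to 0.086 for HDAC3, -0.17 to 0.13 for BMF, -0.40 to 0.47 for TNFSF10 and -0.051 to 0.48 for GSN. They ranged from -0.14 to 0.054 for TYMS, -0.33 to 0.020 for HDAC2, -0.047 to 0.38 for GATA3, -0.13 to 0.49 for GLRX, -0.34 to 0.0084 for ABCC1, -0.035 to 1.49 for SNAP25 and -0.37 to 0.026 for MT-ND6.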
